A study of Mus musculus with 4 samples.

Results

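The guanylate-binding proteins (GBPs) and immunity-related GTPases (IRGs) described here were Gbp2, Gbp3, Gbp4, Gbp5, Gbp7 and Gbp2b of the first family and Igtp, Irgm1, Irgm2 and Iigp1 of the second. These 10 genes were taken by name from the feature table of a single-cell RNA-seq study, which lists 32285 genes, and were followed through cell classes gated on marker genes and through all 4 libraries. The cells were CD45-positive leukocytes sorted from subcutaneous KPC tumours, a pancreatic cancer line derived from a genetically engineered mouse model, grown in male syngeneic C57BL/6 mice. The 4 groups were untreated, STING agonist (a single intratumoral injection of ADU-S100, a cyclic dinucleotide), LTbR agonist (repeated intraperitoneal injections of an agonistic antibody to the lymphotoxin-beta receptor) and the combination of both agents. All groups carried the same tumour line in wild-type hosts, and tumours of a group were pooled before the sort, so that each group is 1 library with no replicate. The single-cell work was repeated in the study, and which repeat gave these libraries is not given in the sources used here.

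GBPs and IRGs are large GTPases that cells make in quantity after exposure to interferon, above all interferon-gamma, through transcription factors such as IRF1. Inside infected cells they gather on the membranes of vacuoles that hold bacteria or parasites, disrupt them, and expose microbial products to the AIM2, NLRP3 and caspase-11 inflammasomes. Their transcripts are widely used as a readout of interferon exposure, in uninfected tissue too. Within the IRGs, the products of Irgm1, Irgm2 and Igtp (also called Irgm3) are the regulators that protect a cell's own membranes, and Iigp1 (Irga6) encodes an effector that loads onto the vacuole.

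The short promoter stretches below are shown because all 8 members whose promoter entries were searched shared a sequence feature that the choice of genes did not use. They come from RefSeq (GRCm38.p6), from windows of 250 bases before to 50 bases after each annotated start, and are written 5′ to 3′ along the gene, with the match to the interferon-response core in capitals and 10 flanking bases on each side. The core searched was GAAANNGAA, which reads TTCNNTTTC on the opposite strand. The Gbp3 and Irgm1 stretches each hold 2 matches, of which the other begins in the lower-case flank and runs into the capitals, and Gbp3 has another promoter entry with 0 matches.
Gbp2: ctcttttagtTTCACTTTCactgtcttaa
Gbp5: cttgtgtagtTTCAATTTCagtttagaga
Gbp7: tgtgtgcagtTTCAGTTTCagttctccat
Gbp3: cagtttcagtTTCTATTTCccagatccct
Gbp2b: tacttctaatTTCACTTTCttctttatca
Irgm1: tcaagaaataGAAACCGAAactgattctc
Igtp: tctaggaactGAAACTGAAagctgttcgg
Irgm2: tccaggaactGAAACTGAAagctgttcgg
The 5 GBP stretches read along the plus strand of chromosome 3, at chr3:142620595-142620623 for Gbp2, chr3:142496760-142496788 for Gbp5, chr3:142530274-142530302 for Gbp7, chr3:142559996-142560024 for Gbp3 and chr3:142594701-142594729 for Gbp2b. The stretch of Irgm1 lies on the minus strand at chr11:48871426-48871454, and those of Igtp and Irgm2 on the plus strand at chr11:58199512-58199540 and chr11:58214903-58214931. The match began between 164 bases before the start in Gbp5 and 24 bases before it in Irgm1. By the GENCODE annotation, 22 of the 29 bases of the Gbp2 stretch and all 29 of the Irgm1 stretch also lie in an exon of a longer transcript of the same gene. The other 6 stretches lie in no exon of their own gene, and exons of other genes were not checked. Among all 27025 genes in the promoter table, 9.76% held the core in a window of this length. The interferon-gamma-activated site TTCNNNGAA, which reads the same on both strands, was present in Gbp5 and Gbp7 with 2 matches each and in Igtp and Irgm2 with 1 each, against 9.55% of all genes, and no match overlapped an interferon-response core. The stretches of Igtp and Irgm2 differ at 1 base, so those 2 are near-copies and not separate instances. Downstream of the stretches, the promoters of these 2 genes also shared an unbroken run of 61 bases. A match is a description of the letters and not evidence that a factor binds there. Gbp4 had no entry in the table, and the promoter and position of Iigp1 were not analysed here.

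The 5 GBP genes on chromosome 3 (Gbp5, Gbp7, Gbp3, Gbp2b and Gbp2) sit side by side from chr3:142493978-142638008 on GRCm38, Gbp4 lies apart from them at chr5:105115767-105139586, Irgm1 at chr11:48861968-48871683, and Igtp and Irgm2 overlap in the annotation at chr11:58199556-58207591 and chr11:58199618-58222782. Closely related members can exchange reads. Of all stretches of 60 bases in the first 500 bases of their transcripts, which a 5′ library reads, 22.6% of those of Igtp and 17.1% of those of Irgm2 were identical between those 2 genes, 20.4% of those of Gbp4 recurred in Gbp9 and related genes, and 5.22% of those of Gbp2b recurred in Gbp2. Gbp3 and Gbp7 shared 2.69% and 4.84% of theirs with each other. The split of reads within these pairs is therefore uncertain. No stretch taken from Gbp2, Gbp5, Irgm1 or Iigp1 recurred in another gene, although Gbp2 holds the Gbp2b stretches named above elsewhere in its transcripts.

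After the quality filter, 23011 cells remained, with 6783 from the untreated tumours, 3748 after STING agonist, 7147 after LTbR agonist and 5333 after the combination, holding between 29751027 and 53910673 unique molecular identifiers (UMIs, 1 per captured transcript) per library and a median of 5750 to 7094 UMIs per cell. Ptprc, the gene of CD45, had a UMI in 93.6% to 95.7% of the cells of each library. Cells were named by the marker list of which most genes were detected, and 4123 cells (17.9%) stayed ungated. A class cut from such a score is a range, so the share of cells lying exactly at the cut, with the fewest own markers or the smallest lead allowed, is given. These were 932 of 8752 macrophage- or monocyte-like cells (10.6%), 69 of 894 neutrophil-like (7.72%), 943 of 6113 T-like (15.4%) and 157 of 1572 NK-like (9.99%), but 92 of 159 cDC2-like cells (57.9%). The median macrophage- or monocyte-like cell had 7 of its own markers, 2 of the NK list, which includes Tyrobp and Fcer1g, genes that myeloid cells also use, and 0 T, B or mature dendritic markers. Among the 10 genes with the highest fold in each class, 2 to 7 were its own markers and none was a member. In all, 246 cell barcode sequences occurred in 2 or more libraries.

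Levels are given as CPM, the UMIs of a gene relative to all UMIs of the class, summed over its cells in a library. Their intervals are exact Poisson intervals at 95%, and those of shares of cells are exact Clopper-Pearson intervals; both cover counting error only and say nothing about mice or tumours. With 1 library a group no test of a treatment is possible, so differences are given as log2 ratios of CPM + 10 with counting intervals, which understate the ratio of low genes, and a gene is called past the fold where this ratio reached 1.5-fold. Shares of all genes past the fold count both directions unless a direction is named. The 3 treated libraries are set against the same untreated library, so their ratios are not independent of each other. Counts from a 5′ library are not scaled for length, so levels are compared between classes and libraries and not between genes.

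Summed over the 10 members, the level was highest in neutrophil-, monocyte- and regulatory T-like cells and lowest in CD8 T-, NK-, cDC1-, B- and plasmacytoid dendritic-like cells. In the untreated library the sum was 1944 CPM in monocyte-like cells (1915 to 1974), 1606 CPM in neutrophil-like cells (1502 to 1715), 1470 CPM in regulatory T-like cells (1367 to 1579.8) and 1405 CPM in macrophage-like cells (1384 to 1425). The regulatory T-like interval overlapped those of the neutrophil- and macrophage-like cells, whereas the monocyte-like level stood clear of all. Gamma-delta T-like cells followed at 1167 CPM, mature dendritic-like cells had 941 CPM, CD4 conventional T-like cells 765 CPM and CD8 T-like cells 441 CPM. NK-like cells had 409 CPM (383 to 437), which overlaps the CD8 T-like interval of 425 to 457, cDC1-like cells 400.3 CPM (359 to 445, from 54 cells), which overlaps both, B-like cells 309 CPM and plasmacytoid dendritic-like cells 243 CPM. Gbp2 made up 32.0% of all member UMIs over the 4 libraries, and Gbp2b made up 0.391%.

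**Figure D1:**
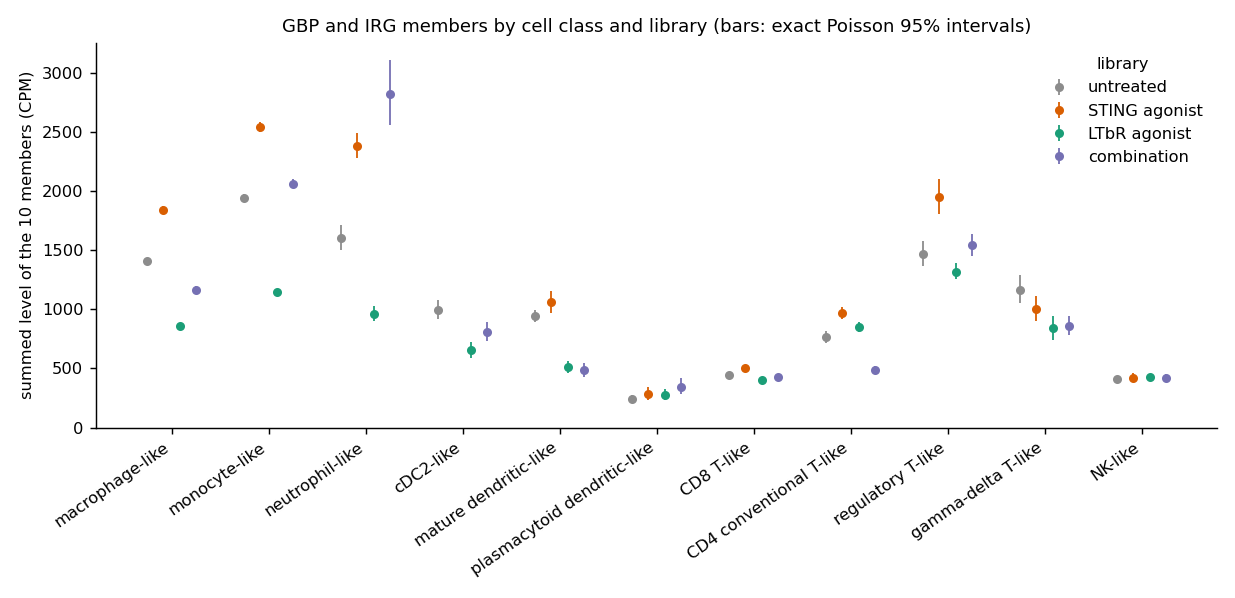
The summed level of the 10 members (vertical axis, CPM) in 11 cell classes (horizontal axis), 1 point per library with its exact Poisson 95% interval; libraries with under 20 cells of a class are left out. The STING agonist points lie above the untreated points in most classes and the LTbR agonist points lie lowest among monocyte-, macrophage- and neutrophil-like cells, whereas the 4 NK-like points lie between 409 and 424 CPM.

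The make-up of the sum differed between classes as well as its size. In monocyte-like cells of the untreated library Gbp2 stood at 799 CPM and Gbp5, whose product promotes NLRP3 inflammasome assembly, at 256 CPM, against 477 and 104 CPM in macrophage-like cells. Iigp1 ran the other way, with 53.6 CPM in monocyte-like cells and 163 CPM in macrophage-like cells. Within these cells Gbp2b was read mostly in the macrophage-like subset, at 16.0 CPM (204 UMIs), against 0.926 CPM (8 UMIs) in monocyte-like cells. In regulatory T-like cells Igtp stood at 281 CPM, Iigp1 at 259 CPM and Irgm2 at 152 CPM, against 61.1, 10.0 and 25.4 CPM in CD8 T-like cells of the same library. Irgm1, at 83.0 CPM there, lay below its level in monocyte-like cells (158 CPM). Plasmacytoid dendritic-like cells had little Gbp2, with 3 UMIs in 101 untreated cells (3.17 CPM), while Iigp1 had 79 UMIs (83.4 CPM) and Irgm1 had 50 UMIs (52.8 CPM). Gbp2 had a UMI in 2.97% of those plasmacytoid dendritic-like cells at a median depth of 9399 UMIs and in 77.4% of macrophage- or monocyte-like cells at a median depth of 9027 UMIs.

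In macrophage- or monocyte-like cells, the class with the most member UMIs and all 10 members above the minimum of 100, the sum was 1614 CPM in the untreated library, 2160.1 CPM after STING agonist, 1022 CPM after LTbR agonist and 1587 CPM after the combination. The STING agonist library was the highest, the LTbR agonist library the lowest, and the combination lay at the untreated level. Against untreated, the log2 ratio of the sum was 0.42 (0.40 to 0.44) after STING agonist, -0.66 (-0.68 to -0.63) after LTbR agonist and -0.02 after the combination, with an interval just below 0. The last value has no stable sign: it was 0.14 when averaged within clusters and 0.0166 without Gbp2. Against the single agents, the combination had a log2 ratio of -0.44 (-0.47 to -0.42) to STING agonist and of 0.63 (0.61 to 0.66) to LTbR agonist.

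Among the GBPs, STING agonist lay above untreated and LTbR agonist below it for every gene but Gbp2b, whose LTbR agonist interval included 0. Gbp2, which coats pathogen vacuoles and frees bacterial DNA for AIM2, stood at 605 CPM in untreated, 869 CPM after STING agonist, 327 CPM after LTbR agonist and 566 CPM after the combination. Its log2 ratios were 0.52 (0.48 to 0.55), -0.87 (-0.91 to -0.83) and -0.10 (-0.13 to -0.06). After LTbR agonist its interval overlapped that of Gbp4, and the order of these 2 genes turned with a pseudocount of 1 CPM (-0.89 for both to 2 decimals, Gbp4 the lower). Gbp5 stood at 162, 219, 109.6 and 179 CPM in the same order of libraries, and the combination lay above untreated by 0.14 (0.07 to 0.20). Gbp4 stood at 107, 145, 57.2 and 85.9 CPM, with a ratio of -0.80 (-0.88 to -0.72) after LTbR agonist. Gbp3 and Gbp7 are neighbours on chromosome 3 that share part of their transcript sequence. Gbp3 stood at 142, 159.7, 91.5 and 116 CPM and Gbp7 at 184, 208, 120.1 and 151 CPM, each with a combination ratio of -0.27. Gbp2b was the exception, at 7.76, 5.42, 7.15 and 10.2 CPM, lowest after STING agonist and highest after the combination. It was also carried by few cells, since 10 cells of each library held 33.9% to 51.2% of its UMIs there.

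Among the IRGs, the ratios of the regulators lay closer to 0 than those of the effector Iigp1. Irgm1 stood at 124 CPM in untreated, 162 CPM after STING agonist, 106 CPM after LTbR agonist and 137 CPM after the combination, Irgm2 at 51.5, 64.3, 43.6 and 56.6 CPM, and Igtp at 121, 160.0, 95.5 and 132 CPM. Their combination ratios were between 0.11 and 0.14, slightly above untreated. Iigp1 stood at 110.1, 168, 64.0 and 153 CPM. It had the highest member ratio after STING agonist, 0.57 (0.50 to 0.64), with an interval that overlaps that of Gbp2, and after the combination, 0.44 (0.36 to 0.51), and the combination exceeded LTbR agonist by 1.14 (1.05 to 1.22). Summed by family, the GBPs had log2 ratios of 0.41, -0.75 and -0.12 after STING agonist, LTbR agonist and the combination, and the IRGs 0.44, -0.38 and 0.23. Under LTbR agonist and the combination, the IRG sum thus lay above the GBP sum relative to untreated, by intervals that do not overlap (IRGs -0.42 to -0.34 against GBPs -0.78 to -0.73 under LTbR agonist).

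**Figure D2:**
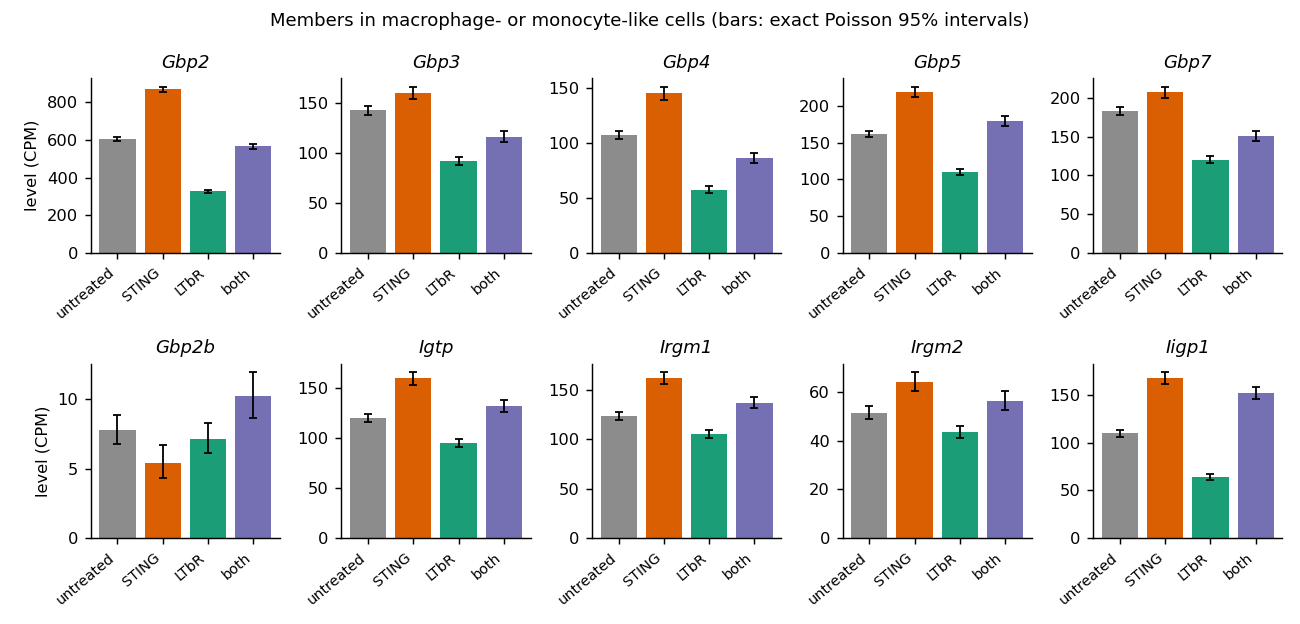
The level of each member (vertical axes, CPM, each panel on its own scale from 0) in macrophage- or monocyte-like cells of the 4 libraries, with exact Poisson 95% intervals; "both" is the combination. Gbp2 runs from 327 CPM after LTbR agonist to 869 CPM after STING agonist, and Iigp1 after the combination (153 CPM) lies near its STING agonist level (168 CPM).

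After STING agonist 0 of the 10 members passed the fold in macrophage- or monocyte-like cells, where 0.291% of 11358 genes with at least 100 UMIs did, 9 members lay above 0 and their median log2 ratio was 0.37, beside a median of 0.0031 over all genes. After LTbR agonist 4 members (Gbp2, Gbp3, Gbp4 and Iigp1) lay past the fold below untreated, against 1.22% of genes in either direction and 0.423% below. All 10 lay below 0, with a median of -0.55. Gbp3, at -0.59, was just inside the fold and Gbp7, at -0.57, just outside. After the combination 0 members passed (2.14% of genes), and 6 lay above 0. Set against STING agonist alone, the combination had 2 members past the fold below (Gbp2 and Gbp4, beside 2.02% of genes in either direction and 0.845% below). Set against LTbR agonist alone, it had 3 past the fold above (Gbp2, Gbp5 and Iigp1, beside 0.731% of genes in either direction and 0.387% above), and all 10 above 0. The summed markers of the class were 10436, 12645, 10409 and 11066 CPM in untreated, STING agonist, LTbR agonist and combination, so the class's own markers were highest in the library in which the members were highest. T cell markers in this class summed to 58.9 CPM in untreated and 27.2 CPM after STING agonist. The part of either in the member levels was not tested.

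Macrophage-like and monocyte-like cells differed in how the combination compared with untreated. In macrophage-like cells the sum was 1405, 1839, 862 and 1166 CPM in untreated, STING agonist, LTbR agonist and combination, and in monocyte-like cells it was 1944, 2541, 1148 and 2061 CPM. Against untreated, the combination lay at -0.27 (-0.31 to -0.23) in macrophage-like cells and at 0.08 (0.05 to 0.12) in monocyte-like cells, whereas the STING agonist ratios were 0.39 and 0.38 and the LTbR agonist ratios -0.70 and -0.75. Iigp1 differed most. In monocyte-like cells it stood at 53.6 CPM in untreated, 81.3 CPM after STING agonist, 36.6 CPM after LTbR agonist and 117 CPM after the combination, the highest of the 4, with a combination ratio of 0.99 (0.84 to 1.15) against 0.16 (0.06 to 0.26) in macrophage-like cells. Gbp2 went from 477 to 338 CPM between untreated and combination in macrophage-like cells and from 799 to 792 CPM in monocyte-like cells. The 2653 cells of the class that fell into neither subset had 1592, 2261, 1030.5 and 1547 CPM.

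The combination was also set against the sum of the log2 ratios of the single agents. In monocyte-like cells the sum of members after the combination exceeded that sum by 0.45 (0.40 to 0.50), and in macrophage-like cells the difference was 0.05 (-0.01 to 0.10), an interval that includes 0. Over the whole macrophage or monocyte class it was 0.21 (0.18 to 0.24), and 0.06 when each cell counted equally. By member, Iigp1 exceeded the sum by 0.57 (0.46 to 0.67) over the class, Gbp2 by 0.26 and Gbp5 by 0.25. For Irgm1, Irgm2 and Igtp the differences were -0.01, 0.04 and 0.05, with intervals that include 0.

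**Figure D3:**
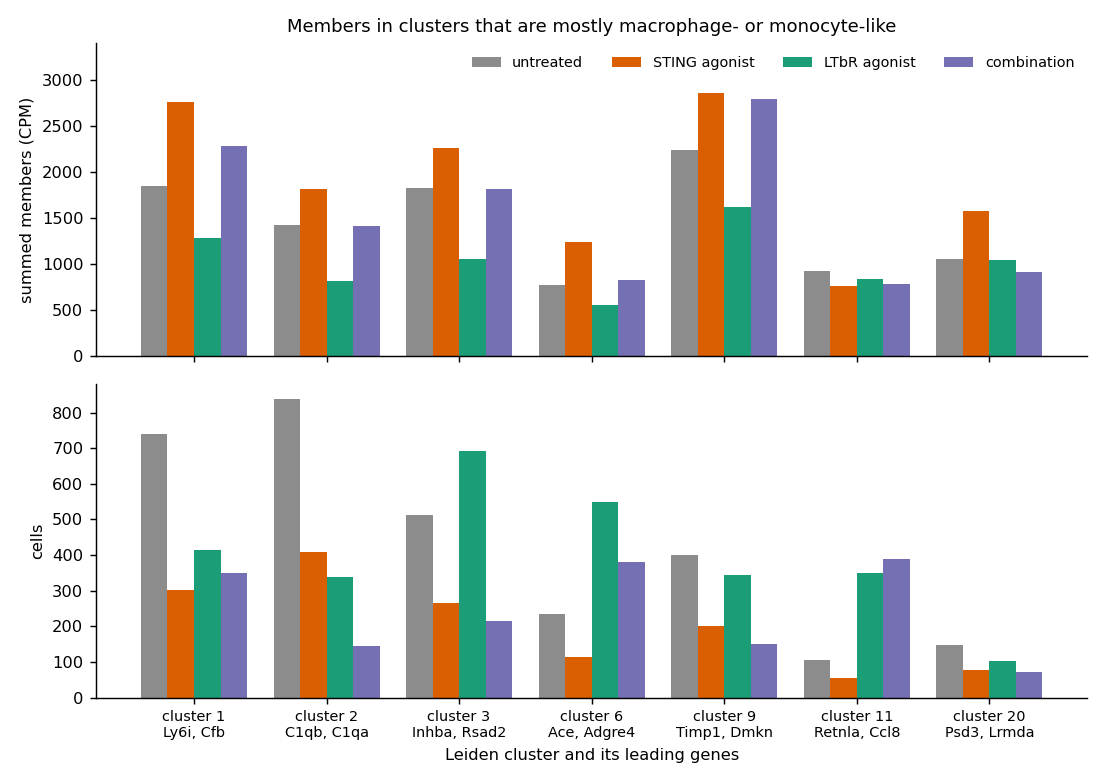
The summed member level (upper panel, CPM) and the number of cells (lower panel) in the 7 Leiden clusters made mostly of macrophage- or monocyte-like cells, for the 4 libraries; each cluster is named by its number and 2 leading genes. LTbR agonist bars are the lowest in 5 of the 7 clusters, and cluster 11 holds 105 untreated and 388 combination cells.

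The clusters were built from counts of the same cells, with the 10 members left out of the clustering genes, and their levels are a description. Cluster 9, led by Timp1, Thbs1 and Cxcl10, had the highest sum, with 2231 CPM in untreated, 2855 CPM after STING agonist, 1622 CPM after LTbR agonist and 2785 CPM after the combination. Cluster 1, led by Ly6i, Cfb and Cxcl9, had 1846, 2755, 1281 and 2275 CPM, so that there the combination lay above untreated. Cluster 2, led by C1qb, C1qa and Apoe, had 1422, 1811, 815 and 1409 CPM, and cluster 3, led by Inhba, Rsad2 and Nos2, had 1819, 2260.0, 1058 and 1814 CPM. The same order of STING agonist above untreated above LTbR agonist held in 6 of the 7 clusters. It did not hold in cluster 11, led by Retnla, Ccl8 and Mrc1, where the sum was 924, 757, 833 and 780.3 CPM. In cluster 20 the combination, at 909 CPM, was the lowest. The libraries divided differently among the clusters. Cluster 11 held 105 untreated, 55 STING agonist, 350 LTbR agonist and 388 combination cells, and cluster 2 held 838, 408, 338 and 146. Averaged within clusters, the ratio was -0.57 after LTbR agonist and 0.14 after the combination.

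Cells of unlike depth were compared after thinning each to 1000 UMIs, with shallower cells left out (11 to 41 cells of a library in this class). The share of macrophage- or monocyte-like cells with any member UMI was then 66.3% in untreated (64.5% to 68.0%), 73.6% after STING agonist (71.3% to 75.9%), 48.7% after LTbR agonist (46.8% to 50.7%) and 57.4% after the combination (54.9% to 59.8%). Without thinning these shares were 94.5%, 95.9%, 87.1% and 87.1%. The combination thus had fewer cells with a member UMI than untreated, while its share of cells with 5 or more, 7.63%, was close to the untreated 7.41% and above the 3.27% of LTbR agonist. After STING agonist 13.7% of cells had 5 or more. For Gbp2 alone the thinned shares were 35.8%, 43.5%, 20.8% and 29.8%.

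**Figure D4:**
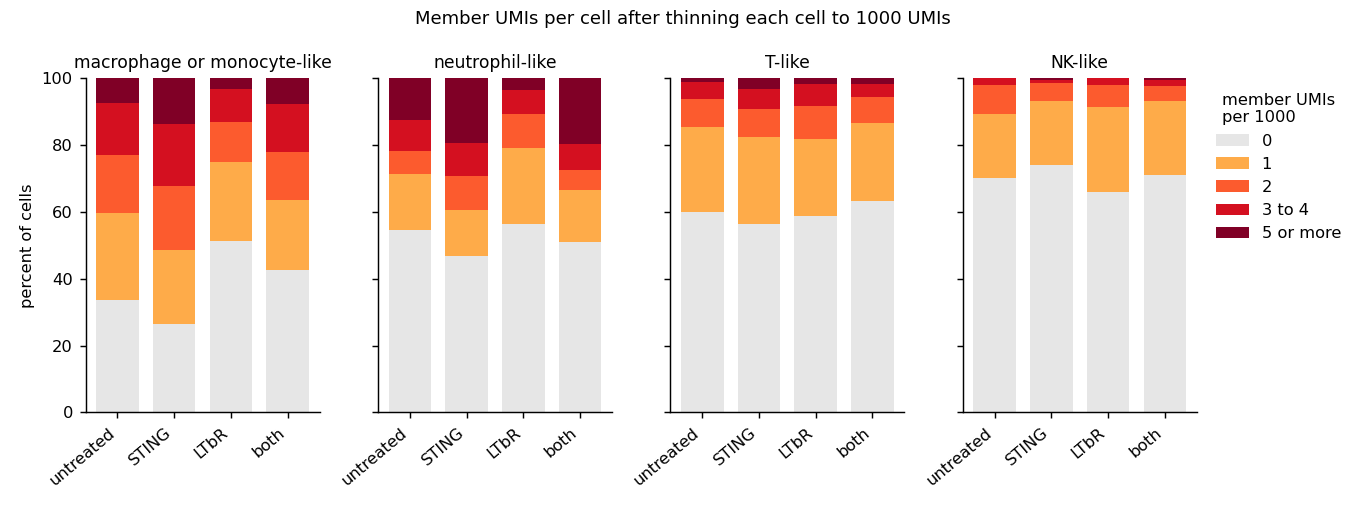
Percent of cells (vertical axis) by the number of member UMIs per cell after thinning to 1000 UMIs, in 4 classes and 4 libraries (both is the combination); grey is 0 and darker colours are more UMIs. Cells with 0 member UMIs are 51.3% of macrophage- or monocyte-like cells after LTbR agonist and 26.4% after STING agonist.

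Neutrophil-like cells had the widest range of any class, and the value after the combination came from few cells. The sum was 1606 CPM in untreated (207 cells), 2384 CPM after STING agonist (287 cells), 961 CPM after LTbR agonist (341 cells) and 2823 CPM after the combination (59 cells). The log2 ratios were 0.57 (0.45 to 0.68), -0.73 (-0.87 to -0.60) and 0.81 (0.64 to 0.98). In the combination library 10 cells held 79.3% of the member UMIs of the class, against 25.8% to 31.2% in the other libraries, and with the 10 highest cells of each library left out the combination ratio became -0.46. It was 0.52 with a stricter gate and 0.78 with cells of a high doublet score removed. Marker genes of macrophages or monocytes in all neutrophil-like cells summed to 4656, 5847, 5331 and 7273 CPM in untreated, STING agonist, LTbR agonist and combination, highest in the combination, and the neutrophil markers to 73919, 80688, 82633 and 68071 CPM, lowest there. Their part in the member levels was not tested.

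In these cells 7 members reached 100 UMIs over the 4 libraries. Gbp2 stood at 639 CPM in untreated, 988 CPM after STING agonist, 300.2 CPM after LTbR agonist and 1085 CPM after the combination, and Gbp5 at 314, 428, 136 and 666 CPM. Both were lowest after LTbR agonist, with log2 ratios of -1.06 (-1.29 to -0.84) and -1.15 (-1.46 to -0.84). Irgm1 stood at 166, 299, 145 and 240.4 CPM and Irgm2 at 103, 123, 112 and 179 CPM. Unlike Gbp2 and Gbp5, Irgm2 after LTbR agonist did not lie below untreated (0.11, -0.32 to 0.53). Of the 7, 3 passed the fold above untreated after STING agonist (Gbp2, Gbp3 and Irgm1), beside 14.0% of 2979 genes in either direction and 3.66% above. After LTbR agonist 2 passed below (Gbp2 and Gbp5, beside 14.1% of genes in either direction and 8.56% below). After the combination 4 passed above (Gbp2, Gbp5, Gbp7 and Irgm2, beside 25.3% of genes in either direction and 11.6% above). None of these 4 did with the 10 highest cells of each library left out, where their ratios were -0.82, -0.0430, 1.96e-05 and -0.40. In all cells, 1 passed above when set against STING agonist (Gbp5, beside 28.9% of genes in either direction and 16.6% above). All 7 passed above when set against LTbR agonist (27.2% of genes in either direction and 14.4% above). Gbp2b had no UMI in any neutrophil-like cell, and Iigp1 had 0, 14, 3 and 13 UMIs, of which the 13 of the combination came from 1 cell.

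In dendritic-like cells (cDC1-, cDC2- and mature dendritic-like cells) the sum was 794 CPM in untreated, 957 CPM after STING agonist, 512 CPM after LTbR agonist and 574 CPM after the combination. In this pooled class the combination lay nearer to LTbR agonist than to untreated, at -0.46 (-0.58 to -0.34) and -0.63 (-0.73 to -0.52). In cDC2-like cells alone it stood at 809 CPM (43 cells), between LTbR agonist (653 CPM, 49 cells) and untreated (996 CPM, 54 cells). There it exceeded LTbR agonist by 0.30 (0.10 to 0.51). The pooled class differed in make-up, with 54 cDC1-like cells of 259 in untreated and 10 of 106 after the combination. Over the pooled class, the value after STING agonist, 0.27 (0.15 to 0.38), came from 76 cells and became -0.15 with the 10 highest cells of each library left out. Those 10 are a larger part of 76 cells than of the 259 untreated cells, so the -0.15 does not compare equal parts. After STING agonist, with the gate used, the GBP sum was 604 CPM in untreated and 618 CPM after STING agonist (0.03, -0.11 to 0.17), and the IRG sum 191 and 339 CPM (0.80, 0.60 to 1.00). Iigp1 stood at 44.5, 83.9, 27.2 and 65.4 CPM, and Gbp5 at 219, 201, 124 and 109 CPM. Of 9 members with enough UMIs, 4 passed the fold above untreated after STING agonist (Igtp, Irgm1, Irgm2 and Iigp1), beside 5.80% of 6604 genes in either direction and 3.09% above. That count was 0 with a pseudocount of 50 CPM and 1 with classes taken from Leiden clusters, where the ratio of the sum was 0.0171. After LTbR agonist 2 passed below (Gbp2 and Gbp5, beside 3.94% of genes in either direction and 2.04% below). After the combination 2 passed below (Gbp4 and Gbp5, beside 7.45% of genes in either direction and 4.53% below). Mature dendritic-like cells alone had 941, 1060.5, 510.2 and 486 CPM, and markers of that state summed to 5283, 6201, 4757 and 4659 CPM over all dendritic-like cells. The marker order is that of the members in mature dendritic-like cells. Over all dendritic-like cells it differs, since the members were lower after LTbR agonist (512 CPM) than after the combination (574 CPM). The part of these markers in the member levels was not tested. In plasmacytoid dendritic-like cells, 30 to 101 a library, Iigp1 stood at 83.4, 111, 109.9 and 148 CPM and Irgm1 at 52.8, 54.2, 78.5 and 99.6 CPM, both highest after the combination. Their IRG sum had a combination ratio of 0.77 (0.42 to 1.13), and the GBP sum one of -0.41 (-1.06 to 0.24).

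In T-like cells taken as a whole LTbR agonist was not the lowest library, but in 3 of their 4 subsets it was. The sum was 585 CPM in untreated, 739 CPM after STING agonist, 638 CPM after LTbR agonist and 543 CPM after the combination, with log2 ratios of 0.33 (0.28 to 0.38), 0.12 (0.07 to 0.17) and -0.11 (-0.16 to -0.06). By subset the LTbR agonist ratio was -0.13 (-0.21 to -0.05) in CD8, -0.16 (-0.28 to -0.03) in regulatory, -0.47 (-0.70 to -0.25) in gamma-delta and 0.15 (0.04 to 0.27) in conventional CD4 T-like cells. The value changed sign to -0.07 when averaged within T cell subsets, and regulatory T-like cells, a subset with high member levels, were 218 of 1754 T-like cells there against 91 of 1507 in untreated. Macrophage or monocyte markers in T-like cells summed to 174, 112, 307 and 126 CPM, highest after LTbR agonist, and their part was not tested. Igtp stood at 94.3, 138, 114 and 95.4 CPM, Gbp7 at 114, 125, 114 and 105 CPM, and Gbp2 at 72.3, 104, 71.7 and 55.3 CPM. None of the 9 members with enough UMIs passed the fold in T-like cells after STING agonist (1.58% of 10916 genes did), LTbR agonist (1.74%) or the combination (1.39%), and 8, 7 and 3 of the 9 lay above 0.

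Within T-like cells, conventional CD4 cells stood out for the combination. Their sum was 765 CPM in untreated, 967 CPM after STING agonist, 853 CPM after LTbR agonist and 485 CPM after the combination, the lowest of the 4, and the combination differed from the sum of the single agents by -1.13 (-1.31 to -0.96) on the log2 scale. Gbp2 there stood at 109, 180.2, 127 and 53.7 CPM and Igtp at 133, 179, 163 and 88.4 CPM, whereas Iigp1, at 58.5, 81.6, 46.5 and 60.1 CPM, did not follow them. CD8 T-like cells ranged only from 401 to 502 CPM, and gamma-delta T-like cells had 1167, 1002, 839 and 857 CPM, highest in untreated. Regulatory T-like cells had 1470 CPM in untreated, 1948 CPM after STING agonist, 1319 CPM after LTbR agonist and 1542 CPM after the combination. In them Gbp2 was lowest after LTbR agonist (194, 202, 76.6 and 121 CPM), while Igtp was not (281, 434, 287 and 332 CPM). They number 64 to 218 cells a library.

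In NK-like cells the sum showed no difference beyond counting error. It was 409, 423, 424 and 421 CPM, and the log2 ratios were 0.05 (-0.10 to 0.19), 0.05 (-0.07 to 0.17) and 0.04 (-0.09 to 0.17). These intervals cover counting error only, so they do not say what difference between tumours could have been detected. The IRG sum after the combination was an exception, at 0.28 (0.05 to 0.50). None of 9 members passed the fold after STING agonist (4.09% of 7755 genes did), LTbR agonist (1.25%) or the combination (1.77%). Gbp2 stood at 52.5, 47.8, 38.8 and 42.9 CPM and Gbp7 at 90.7, 102, 100.3 and 90.7 CPM. After thinning, 29.8%, 25.8%, 33.9% and 29.0% of NK-like cells had a member UMI. B-like cells had 309, 675, 333 and 354 CPM, but only 13 cells gave the STING agonist value, so no ratio is given.

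**Figure D5:**
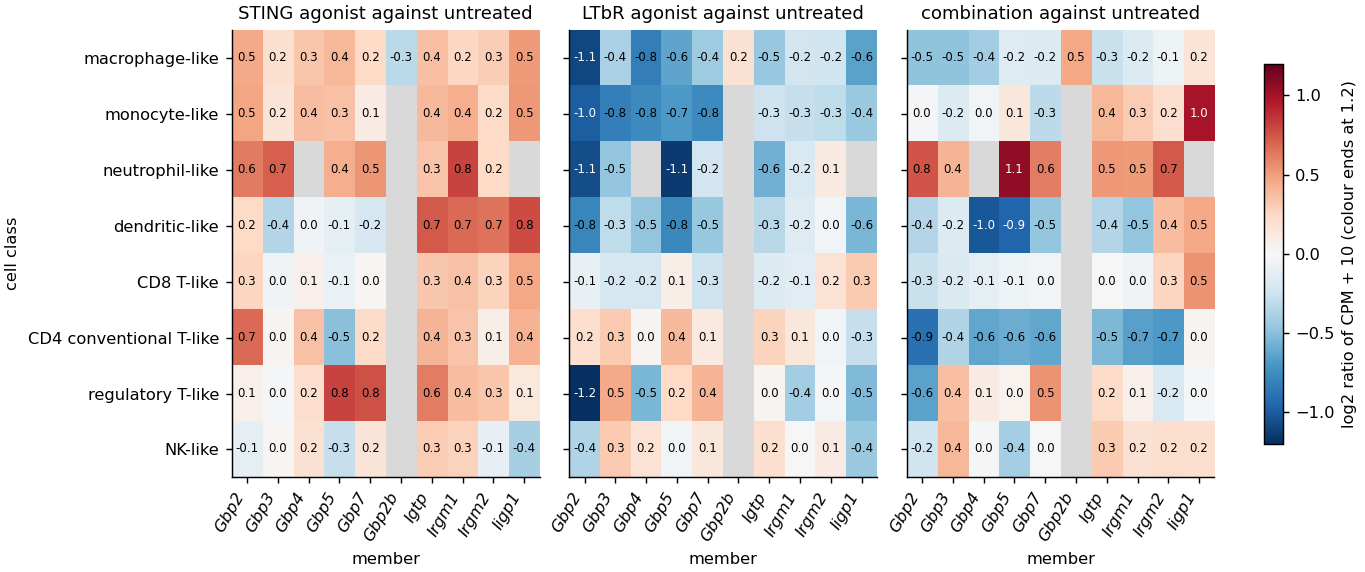
The log2 ratio of CPM + 10 against untreated for each member (horizontal axes) and cell class (vertical axis), with a panel for each treated library; red is above and blue below untreated, and grey cells have under 100 UMIs over the 4 libraries. Most entries of macrophage-, monocyte-, neutrophil- and dendritic-like cells are blue after LTbR agonist, with Gbp2 at -1.06 in neutrophil-like cells, and no NK-like entry reaches 1.5-fold.

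The pathway above and around these genes was read in macrophage- or monocyte-like cells from lists of its known parts. Interferon-gamma itself (Ifng) was mainly a lymphocyte transcript. In T-like cells it stood at 346 CPM in untreated, 357 CPM after STING agonist, 187 CPM after LTbR agonist and 209 CPM after the combination, so both libraries with LTbR agonist were the lower ones. NK-like cells had 87.4, 73.0, 74.1 and 59.3 CPM and macrophage- or monocyte-like cells 1.73 to 3.97 CPM. The receptor genes Ifngr1 and Ifngr2 had combination ratios of 0.11 and 0.09 and Jak2, the receptor's kinase, -0.24. In macrophage- or monocyte-like cells 0 of the 5 genes of this list passed the fold in any treated library, and in T-like cells 1 of 5, Ifng, passed below untreated after LTbR agonist and after the combination.

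Of the transcription factors, Irf1 stood at 236, 313, 176 and 297 CPM, highest after STING agonist and lowest after LTbR agonist, as the members were. Irf1 and Nlrc5, which drives MHC class I genes, had the highest combination ratios of the 10 factors, 0.32 and 0.15, and Stat2 (-0.23) and Irf7 (-0.33), factors of the type I interferon response, were the lowest. None of the 10 passed the fold. Among the feedback genes Socs1, which shuts off JAK kinases, stood at 90.9, 164, 77.8 and 163 CPM and alone of 5 passed the fold after STING agonist (0.79, 0.72 to 0.86) and after the combination (0.78, 0.70 to 0.85). Ptpn2 had a combination ratio of 0.26, Usp18 -0.04 and Socs3 -0.35. Of 13 interferon-gamma targets with enough UMIs, Cxcl9, a chemokine for activated T cells, passed after STING agonist and the combination (338, 552, 242 and 547 CPM), Serpina3g passed after the combination (29.0, 39.0, 34.5 and 76.7 CPM) and Ly6a passed below after LTbR agonist (2031, 2135, 1340.4 and 1419.9 CPM). Nos2 had a combination ratio of -0.22. The median ratios of these 13 targets were 0.18 after STING agonist, -0.25 after LTbR agonist and -0.06 after the combination.

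In macrophage- or monocyte-like cells the type I interferon targets did not share the order of the members. Isg15, a ubiquitin-like modifier, stood at 1287, 1189, 1153 and 1102 CPM and Ifit3 at 162, 152, 123 and 145 CPM, both highest in untreated. None of the 13 with enough UMIs passed the fold, and their median ratios were -0.08 after STING agonist, -0.16 after LTbR agonist and -0.20 after the combination, where the members had 0.37, -0.55 and 0.12. Ifit3b (-0.07) and Ifit3 (-0.15) had the highest combination ratios of this list, and Rsad2 (-0.51) and Rtp4 (-0.34) the lowest. The other GBP genes followed the members: Gbp6 stood at 72.9, 109.8, 44.5 and 67.9 CPM, Gbp9 at 71.6, 90.4, 49.1 and 65.3 CPM and Gbp8 at 92.6, 107, 58.5 and 71.0 CPM, with Gbp6 past the fold below after LTbR agonist. Of 8 further IRG and related genes none passed. Gm4951 (43.7, 65.3, 25.8 and 60.2 CPM) and Tgtp2 (35.9, 54.6, 26.1 and 46.5 CPM) had the highest combination ratios, 0.39 and 0.30, and 9930111J21Rik1 and 9930111J21Rik2 the lowest, -0.11 and -0.08. In neutrophil-like cells the type I targets had median ratios of 0.40, 0.46 and 0.53 after STING agonist, LTbR agonist and the combination. Their medians were 0.32, 0.17 and 0.21 in NK-like cells and 0.17, 0.20 and -0.17 in T-like cells.

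The lists of partners that GBPs and IRGs work with had no gene past the fold in macrophage- or monocyte-like cells, where 0.291% of all genes passed after STING agonist, 1.22% after LTbR agonist and 2.14% after the combination, so that counts of 0 in lists of this size are near the background. None of 8 inflammasome genes passed the fold in any treated library, with combination ratios from 0.14 for Gsdmd, the pore-forming protein, and 0.09 for Aim2 down to -0.23 for Il18 and -0.48 for Il1b (5098, 4958, 4036 and 3648 CPM). None of 10 ubiquitin and autophagy genes that steer the GTPases to membranes passed, from 0.23 for Traf6 and 0.09 for Sqstm1 to -0.06 for Map1lc3b and -0.08 for Gabarap. None of 5 prenylation enzymes, which attach the lipid anchor of Gbp2 and Gbp5, passed, from 0.28 for Fnta and 0.13 for Rce1 to 0.04 for Pggt1b and -0.02 for Fntb. Of the type I interferon receptor and sensor genes, Tmem173, which encodes STING, had a combination ratio of 0.09, Cgas of -0.0041, Ifnar1 of -0.06 and Ifnar2 of -0.26, and none passed.

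Over 43 sums of a class in a library with at least 50 cells each, the genes whose log2(CPM + 10) most resembled the mean of the members were Vamp4 (Pearson r = 0.85), Parp14 (0.84), Ltb4r1 (0.84) and Ifi47 (0.84), followed by Pik3c2a, N4bp1, Rtp4, 1600014C10Rik, Smox and Xaf1 (0.82 to 0.81), of 9524 genes compared. These sums share libraries and include subsets of larger classes, so r describes likeness across cell types. Among the members, Igtp resembled the mean of the other 9 most (0.81) and then Irgm2 (0.77), Gbp7 and Gbp3 (0.75 each), whereas Gbp5 (0.57), Gbp4 (0.50), Iigp1 (0.46) and Gbp2b (0.12) resembled it least.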

How the data were processed

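Single-cell 5′ libraries (10x Genomics) were made from sorted CD45-positive cells of pooled tumours, 1 library per group. The authors deposited UMI counts per gene and cell for all 4 libraries in a single matrix, made per the submitters' processing notes with Cell Ranger 7.1.0 and aligned to the mouse mm10 genome, with cells assigned to libraries by their barcode suffix. The counts were used as deposited. As in the study's methods, cells were dropped below 300 or above 5000 genes, or above 6% mitochondrial UMIs. A cell was gated to the marker list with most detected genes where these were at least 3 and at least 2 more than in any other list; macrophage- and monocyte-like subsets were split in the same way by lists of 7 markers each, and T cell subsets by Cd4, Cd8a, Cd8b1, Foxp3 and Trdc. No doublets were removed; removal by Scrublet score (expected rate 0.05) was an alternative. Counts were summed per class and library. Ratios used a pseudocount of 10 CPM, calls a 1.5-fold difference among genes with at least 100 UMIs in the class. Clusters (Leiden, resolution 1) used 2000 variable genes, chosen after 641 antigen receptor segment genes and the 10 members were set aside, 30 principal components and 20 neighbours.

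Genes named were all 10 members, a fixed set of 7 interferon genes, and of each pathway list the 2 highest and 2 lowest combination ratios in macrophage- or monocyte-like cells, besides list genes past the fold. Of the fixed set, 1 gene is not reported here. The members and lists were chosen with earlier results of these data known. Protein identity between members, planned at the outset, was not analysed here. Python 3.11.15 was used with numpy 2.4.6, scipy 1.17.1, pandas 2.3.3, scanpy 1.11.5, leidenalg 0.10.2 and matplotlib 3.10.9. Scripts were tested on simulated data.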

Additional observations from a re-analysis of the deposited data

Results flagged for a closer look

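Cell classes that moved in opposite directions, or to unlike degrees, under the same agent are given here with the difference of their log2 ratios of the summed members; with 1 library a group these differences were not tested, and each pair of classes comes from the same libraries. After LTbR agonist the T-like ratio lay above that of macrophage- or monocyte-like cells by 0.78, above that of neutrophil-like cells by 0.86 and above that of dendritic-like cells by 0.75. Each of the myeloid ratios was below 0 and the T-like ratio was above 0, although the latter changed sign when averaged within subsets and 3 of the 4 T cell subsets had ratios below 0. After the combination the neutrophil-like ratio lay above that of macrophage- or monocyte-like cells by 0.83, above that of dendritic-like cells by 1.27 and above that of T-like cells by 0.92. All of these come from 59 neutrophil-like cells, of which 10 held 79.3% of the member UMIs.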

How the results depend on the processing

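Of 171 recomputed log2 ratios of the summed members, 155 kept their sign, as did 530 of 540 for single members and 8 of 12 differences in shares of cells with a member UMI. Single members were recomputed in macrophage- or monocyte-like and neutrophil-like cells only. Of 150 counts of members past the fold, 131 stayed the same or within 1.5 times. Most of these counts were 0 as reported, as in T- and NK-like cells, so that their staying the same says little. The counts above 0 changed more often, as listed below. Values beyond the counting interval are listed by class, for STING agonist, LTbR agonist and combination against untreated, and the cause of each shift was not tested. The averages within clusters and the sums without Gbp2 were chosen after seeing the data. Leaving out the 10 highest cells of each library removes a larger part of a library that has fewer cells of the class.

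In macrophage- or monocyte-like cells, equal weight per cell gave 0.44, -0.62 and -0.12, and the sum without Gbp2 gave 0.35, -0.53 and 0.0166. For LTbR agonist and combination, Leiden classes gave -0.68 and -0.0629, the denominator without mitochondrial, ribosomal, immunoglobulin and T cell receptor genes -0.62 and -0.00035, averages within subsets -0.70 and -0.0524, and averages within clusters -0.57 and 0.14; the combination was -0.0549 without the 10 highest cells. Averaged within clusters, the combination ratio of Gbp2 became 0.12 and that of Gbp2b -0.33. In neutrophil-like cells LTbR agonist was -0.54 without Gbp2, and the combination was 0.57 with Leiden classes, 0.52 with a stricter gate and -0.46 without the 10 highest cells. Without those cells the combination ratio of Gbp2 became -0.82, Igtp -0.51, Irgm2 -0.40, Irgm1 -0.22, Gbp5 -0.0430 and Gbp7 1.96e-05.

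In dendritic-like cells Leiden classes gave 0.0171, -1.04 and -1.02. STING agonist became -0.15 and the combination -0.96 without the 10 highest cells, LTbR agonist -0.49 without the quality filter, and the combination -0.72 with a stricter gate. In T-like cells LTbR agonist was 0.19 with Leiden classes, and LTbR agonist and combination were -0.0684 and -0.19 within subsets and -0.0287 and -0.17 within clusters; the combination was -0.0479 with a stricter gate and -0.0530 with the reduced denominator. In NK-like cells STING agonist was -0.20 with a stricter gate, LTbR agonist 0.20 without the 10 highest cells and the combination -0.11 with equal weight per cell. The combination minus the sum of single agents was 0.0615 (equal weight) and 0.30 (within clusters) in macrophage- or monocyte-like cells, 0.67 (Leiden classes), 0.64 (stricter gate) and -0.41 (10 highest cells out) in neutrophil-like cells, and -0.42 (subsets) and -0.45 (clusters) in T-like cells.

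Counts of members past the fold changed with the threshold. In macrophage- or monocyte-like cells, 1 lay above after STING agonist with a pseudocount of 1 CPM, and below after LTbR agonist 1 with 50 CPM and 0 at a fold of 2. In neutrophil-like cells those above after STING agonist were 0 at a fold of 2 and 1 with Leiden classes, and after the combination 2 with 50 CPM and 1 at a fold of 2. In dendritic-like cells those above after STING agonist were 0 with 50 CPM, 0 at a fold of 2 and 1 with Leiden classes, with 1 below; below after LTbR agonist were 4 with 1 CPM, 0 at a fold of 2 and 8 with Leiden classes, and after the combination 1 with 50 CPM, 1 at a fold of 2 and 8 with Leiden classes. In NK-like cells 1 lay below after STING agonist and 1 after LTbR agonist with 1 CPM.

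Thinned to 1000 UMIs, the difference from untreated in the share of cells with a member UMI was 7.38 (STING agonist) and -17.5 (LTbR agonist) percentage points in macrophage- or monocyte-like cells. It was 3.65 and 1.25 in T-like cells and -3.96 for STING agonist in NK-like cells, and all of these T- and NK-like values had their sign changed by thinning. The LTbR agonist difference in NK-like cells also changed sign. Its shares were 74.8% in untreated and 73.8% after LTbR agonist without thinning, and 29.8% and 33.9% with it. No paired analysis was possible because each group has 1 library and the result comes from no test. Classes of few cells have wide counting intervals.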
